A study of Homo sapiens with 4 samples.

Results

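The genes described here were 9 genes of plasminogen activation and of the serpin family, out of 20348 genes in the deposited count table. They were the urokinase gene PLAU, its receptor gene PLAUR, and the serpin genes SERPINB2, SERPINE2, SERPINI1, SERPINB1, SERPINB6, SERPINB8 and SERPINB9. The genes were chosen by symbol, with their CPM (counts scaled to the same library total in every library) in these same 4 libraries and the difference between periplocin and DMSO in each cell line already known. All of these values are therefore a description of the libraries, and no test was applied to them. Each of the 9 symbols matched 1 Ensembl identifier in the table.

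The established human lines K562 (chronic myeloid leukemia, with erythroid features) and THP-1 (acute monocytic leukemia) were each cultured for 72 h with DMSO, the solvent control, or with 100 nM periplocin, a cardiac glycoside from Cortex periplocae. The sample titles call the controls blank, whereas the library names and the methods of the study give DMSO. Poly-A RNA of 1 culture per condition was sequenced, so that 4 libraries represented 4 groups, each line being 1 established culture without replication. Library totals were between 16381149 and 20622694 counts. With 1 library per group, a difference between libraries had no replicate check. Intervals given below are 95% exact binomial (Clopper-Pearson) intervals, which cover counting error only and compare libraries, not conditions.

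Plasminogen is the precursor of plasmin, a serine protease that dissolves fibrin and degrades pericellular matrix. Urokinase and tissue plasminogen activator cleave plasminogen, and the urokinase receptor, anchored to the membrane by a lipid, holds urokinase at the surface of monocytes and other leukocytes. Serpins are suicide inhibitors: the target protease cleaves an exposed loop, and the serpin then changes shape and traps the protease in a covalent complex. Serpins of clade B lack a classical secretion signal and act largely inside the cell, where several protect leukocytes from their own granule proteases.

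Upstream sequences are shown for SERPINB2, SERPINB8 and SERPINB9, the 3 clade B genes among the 9 that were nearly confined to a single line, with the first pair also lower with periplocin in THP-1. Each was read from the 250 bases before a RefSeq transcription start on GRCh38.p14, 5′ to 3′ on the strand of the gene. A window was cut short where an exon of a coding gene begins in GENCODE release 29, which left 245, 94 and 250 bases. Nothing was left of the windows of SERPINI1, PLAU and PLAUR, whose RefSeq starts lie downstream of, or opposite to, annotated exons, and they are not shown. The letters in capitals match 1 of 6 motifs searched on both strands: TGANTCA of AP-1, TGACGTCA of the cyclic AMP response element, AGATAA of GATA factors, GAGGAAG of PU.1, CACGTG of the E-box and TATAAA of the TATA box.
SERPINB2, chr18:63887455-63887699, plus strand: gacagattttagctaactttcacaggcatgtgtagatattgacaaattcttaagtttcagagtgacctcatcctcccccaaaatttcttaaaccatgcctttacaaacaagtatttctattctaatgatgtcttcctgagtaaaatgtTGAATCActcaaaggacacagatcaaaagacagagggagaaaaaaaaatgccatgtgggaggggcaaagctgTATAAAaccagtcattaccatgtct
SERPINB8, chr18:63969831-63969924, plus strand: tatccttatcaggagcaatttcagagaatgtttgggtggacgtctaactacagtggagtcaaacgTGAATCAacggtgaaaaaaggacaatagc
SERPINB9, chr6:2903310-2903559, minus strand: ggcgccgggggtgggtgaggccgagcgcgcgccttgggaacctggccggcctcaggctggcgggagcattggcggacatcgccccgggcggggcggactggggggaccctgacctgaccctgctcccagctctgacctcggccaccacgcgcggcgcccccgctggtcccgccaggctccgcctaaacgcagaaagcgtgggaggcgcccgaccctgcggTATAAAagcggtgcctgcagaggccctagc

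RefSeq windows were found for all 9 genes, 14 windows in all, and the motifs were counted in the whole 250 bases. The AP-1 letters were found in 3 of the 14 windows, those of PLAUR, SERPINB2 and SERPINB8, and in 6.57% of all 35116 RefSeq windows of this length. In SERPINB2 they began 102 bases before the start, and the TATA letters, present in 10.7% of all windows, began 30 bases before it. SERPINB8 held the AP-1 letters at 28 and at 185 bases before the start, and its TATA letters at 140 bases overlapped a match on the other strand at 142. SERPINB9 also held the TATA letters 30 bases before its start. In the window of the downstream PLAU start the PU.1 letters began 222 bases before the start, and they occurred in 11.2% of all windows. The SERPINI1 window, with 64.8% G and C, held none of the 6 motifs, whereas the SERPINB2 window had 37.2% G and C and that of SERPINB9 74.4%. These matches describe the letters of each window and are not evidence of binding, and no match says only that the letters are not in this window.

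Marker genes separated the lines as their names would have it. The 7 erythroid genes HBG1, HBG2, HBE1, HBZ, GATA1, KLF1 and TAL1 summed to 1978 CPM in K562 DMSO and 3.49 CPM in THP-1 DMSO. The 8 myeloid genes SPI1, MPO, LYZ, CSF1R, CD33, FCGR1A, ITGAM and CLEC12A summed to 709 CPM in THP-1 DMSO and 91.6 CPM in K562 DMSO. Both sums were higher in the periplocin library of their own line, at 8386 CPM and 867 CPM. Of the 8 myeloid genes in THP-1, however, 2 were at least 2-fold higher with periplocin, 1 at least 2-fold lower and 5 between, with a median log2 ratio of -0.25. A list of 8 macrophage genes (CD14, CD86, CD163, MRC1, FCGR3A, C1QA, C1QB and APOE) went from 3.44 to 53.3 CPM in THP-1 and from 44.1 to 111 CPM in K562, where APOE alone had 720 of the K562 DMSO counts and 1755 of the periplocin counts. At 3 counts or fewer were 7 of the 8 in K562 DMSO and 4 in K562 periplocin, against 4 and 3 in THP-1. In THP-1, only 3 of the 8 had at least 20 counts in sum over the pair, and these held most of the periplocin sum. T, NK and B cell genes (CD3E, CD3D, NKG7, GNLY, MS4A1 and CD79A) summed to at most 8.24 CPM. The mitochondrially encoded share of counts was 5.62% with DMSO and 2.07% with periplocin in K562, against 5.24% and 3.92% in THP-1. The part of these shifts in the values that follow was not tested, and in bulk RNA fewer cells of a type and less RNA per cell cannot be told apart.

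Between the DMSO libraries the lines differed widely in these genes. All 9 genes had at least 20 counts in sum over the pair of DMSO libraries, and 7 were at least 2-fold apart after scaling by trimmed mean of M values (TMM). Of these, 3 were higher in THP-1 (SERPINB2, SERPINB8 and SERPINE2), where 23.9% of 13441 genes were higher by at least 2-fold. The other 4, SERPINI1, SERPINB1, SERPINB6 and SERPINB9, were lower in THP-1, where 21.3% of all genes were lower. SERPINB2 had 0 counts in K562 DMSO and 3652 in THP-1 DMSO. With K562 set to the floor of 3 counts per library, it was 1052-fold higher in THP-1. The lower limit of its counting interval was 9.74 on the log2 scale. SERPINB8 had 3 and 3665 counts, a ratio of 1055 (interval 361 to 5119). The opposite pattern was seen for SERPINB9, with 1209 counts in K562 and 5 in THP-1. PLAU and PLAUR were the members closest to each other between the lines, at 1.69-fold (interval 1.48 to 1.94) and 1.25-fold (interval 1.05 to 1.50) higher in THP-1.

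Per kilobase of the longest coding transcript, a scaling for comparing genes within a library, the order of members also differed. In K562 DMSO the highest levels were those of SERPINB1 (53.3 CPM per kb), SERPINB6 (48.2) and SERPINB9 (17.9). PLAUR (7.89), SERPINI1 (7.65) and PLAU (7.37) followed, and their intervals overlapped. In THP-1 DMSO the order began with SERPINB2 (82.2 CPM per kb), SERPINB8 (51.1) and SERPINB1 (22.0). After periplocin, SERPINI1 was the highest member per kilobase in K562 (50.2 CPM per kb) and the second highest in THP-1 (18.5), behind SERPINB8 (21.6). Ranks per kilobase depend on the transcript lengths used, 5620 bases for SERPINB6 and 1907 for SERPINI1. In CPM, SERPINB6 (243) and SERPINB1 (102) were above SERPINI1 (95.8) in K562 periplocin. In THP-1 periplocin, SERPINB8 (75.1), SERPINB1 (41.3) and PLAU (39.7) were above SERPINI1 (35.3) in CPM. Per kilobase, the levels of SERPINB1 (15.8), PLAU (14.9) and PLAUR (14.8) in THP-1 periplocin had overlapping intervals.

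**Figure D1:**
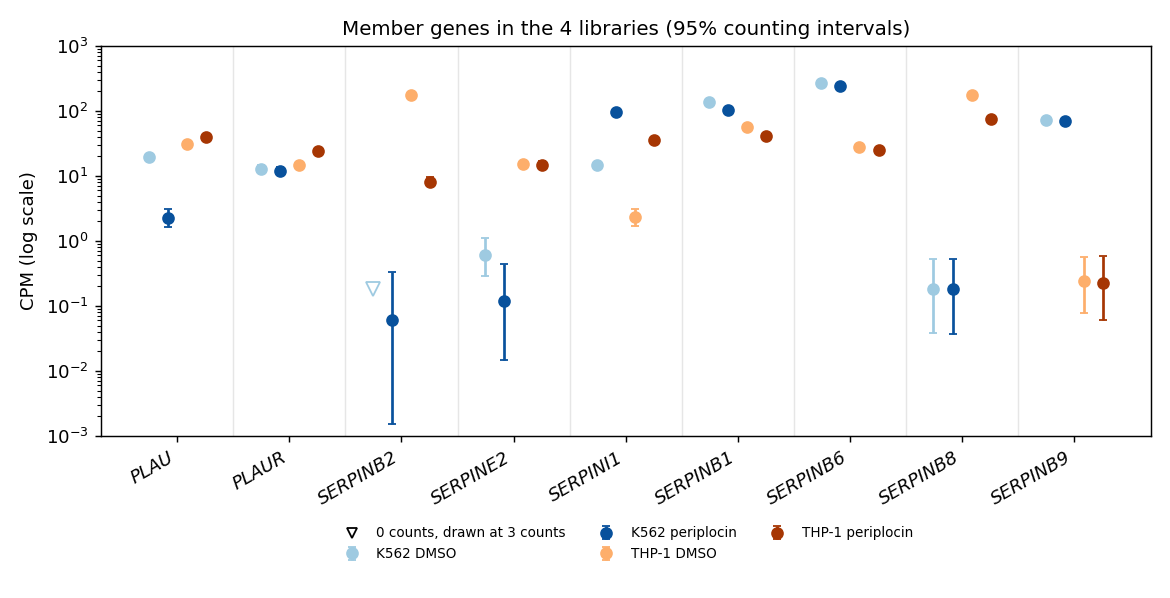
CPM of the 9 genes on a log axis, with 1 point per library (K562 DMSO, K562 periplocin, THP-1 DMSO, THP-1 periplocin) and bars for the 95% counting interval. SERPINB2 and SERPINB8 were at 177 and 178 CPM in THP-1 DMSO and at 3 counts or fewer in K562. SERPINB9 was at 73.8 and 71.1 CPM in K562 and had 5 and 4 counts in THP-1. SERPINI1 was higher with periplocin in both lines. The library with 0 counts is drawn as an open triangle at the level of 3 counts.

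Differences between periplocin and DMSO were counted among genes with at least 20 counts in sum over the pair of libraries of a line. In K562, 6 of the 9 genes passed this filter, while SERPINB2, SERPINE2 and SERPINB8 did not. SERPINI1 was the 1 gene at least 2-fold higher with periplocin, beside 9.69% of 12399 genes tested, and PLAU was the 1 gene at least 2-fold lower, beside 12.1% of genes. In THP-1, 8 of the 9 genes passed and SERPINB9 did not. SERPINI1 was again the 1 gene at least 2-fold higher, beside 8.88% of 12989 genes, and SERPINB2 and SERPINB8 were the 2 genes at least 2-fold lower, beside 11.2%. Nothing is read from these shares, since the genes were chosen with the same contrasts known.

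The activator PLAU, which encodes urokinase (chromosome 10, 73909177 to 73917497 on GRCh38), had 321 counts with DMSO and 38 with periplocin in K562, and 629 and 704 counts in THP-1. In K562 it fell 8.60-fold (interval 6.13 to 12.4), from 19.6 to 2.29 CPM. In THP-1 it was 1.31-fold higher (interval 1.18 to 1.46), which is beyond counting error and below 2-fold. K562 periplocin was thus the lowest of the 4 libraries, and the remaining 3 lay between 19.6 and 39.7 CPM. The response in THP-1 exceeded that in K562 by 3.48 on the log2 scale, with a standard error of 0.26 from counting alone. PLAU overlaps C10orf55, a coding gene on the opposite strand that is not in the count table. As the libraries do not mark strand, the assignment of reads is uncertain where they overlap.

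The receptor gene PLAUR (chromosome 19, 43646095 to 43670547) differed less than PLAU in K562. It had 208 counts in K562 DMSO and 200 in K562 periplocin, a 1.06-fold lower value whose interval, 0.868 to 1.29, included no difference. THP-1 had 302 and 422 counts, 1.64-fold higher (interval 1.41 to 1.91) and below 2-fold. This value was above the 1.31 of PLAU in THP-1, whose interval (1.18 to 1.46) overlapped that of PLAUR. The ratio of PLAU to PLAUR per kilobase, activator over receptor within a library, was 0.935 with DMSO and 0.115 with periplocin in K562, and 1.26 and 1.01 in THP-1.

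SERPINB2 encodes a clade B inhibitor of urokinase that is abundant in monocytes and macrophages. In THP-1 its counts were 3652 with DMSO and 145 with periplocin, a 21.5-fold fall (interval 18.2 to 25.5) from 177 to 8.18 CPM. In K562 it had 0 counts with DMSO and 1 with periplocin, so that no fold is given there. The annotated SERPINB2 gene on chromosome 18 (63871692 to 63903890) overlaps SERPINB10 on the same strand, so the assignment of reads to one or the other is uncertain where they overlap.

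SERPINI1, the gene of neuroserpin, an inhibitor mainly of tissue plasminogen activator that is best known from neurons, moved in the opposite direction. In K562 it rose from 239 to 1586 counts (14.6 to 95.8 CPM), 6.52-fold (interval 5.68 to 7.50). In THP-1 it rose from 48 to 625 counts (2.33 to 35.3 CPM), 15.3-fold (interval 11.4 to 20.9). Each periplocin library was above both DMSO libraries. The rise in THP-1 was larger by 1.22 on the log2 scale (standard error 0.24 from counting alone), and the level with periplocin was nevertheless higher in K562. SERPINI1 lies on chromosome 3 (167735243 to 167825568), head to head with PDCD10, a gene of the cerebral cavernous malformation complex, whose nearest RefSeq start is 829 bp away on the other strand. PDCD10 had 1352 (DMSO) and 1416 (periplocin) counts in K562, against 1061 and 1304 in THP-1, at ratios of periplocin over DMSO of 1.03 (interval 0.954 to 1.11) and 1.44 (interval 1.33 to 1.56).

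SERPINE2 encodes protease nexin 1, a secreted inhibitor of thrombin, urokinase and plasmin. It was a THP-1 gene in these libraries, with 316 counts in DMSO and 264 in periplocin, a ratio of periplocin over DMSO of 0.980 whose interval (0.829 to 1.16) included no difference. In K562 it had 10 counts in DMSO and 2 in periplocin, 5.09-fold lower with an interval from 1.09 to 47.8, and these few counts set no size for the difference.

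**Figure D2:**
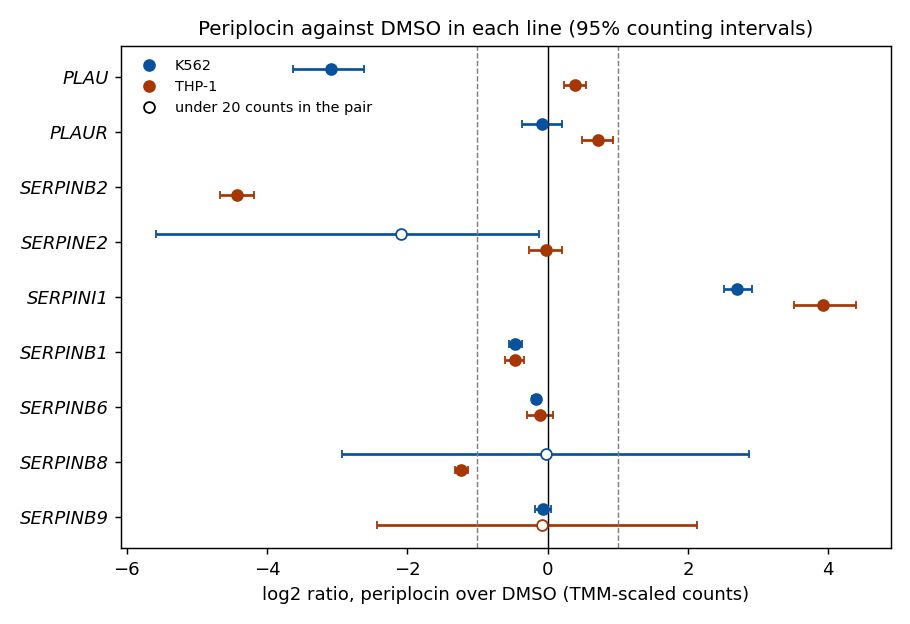
Log2 ratio of periplocin over DMSO for each of the 9 genes in K562 and THP-1, after TMM scaling and with 0.5 count added, with bars for the 95% counting interval and dashed lines at 2-fold. PLAU in K562 and SERPINB2 in THP-1 lie far to the left and SERPINI1 far to the right in both lines. Open points had under 20 counts in the pair, and SERPINB2 in K562, with 0 and 1 counts, is not drawn.

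The 3 members that inhibit plasminogen activators, SERPINB2, SERPINE2 and SERPINI1, were also summed per kilobase. Their summed level in CPM per kb was 7.89 with DMSO and 50.3 with periplocin in K562, against 89.4 and 28.1 in THP-1. SERPINI1 made up 97.0% of this sum in K562 DMSO and 99.9% in K562 periplocin. In THP-1, SERPINB2 made up 92.0% with DMSO and 13.5% with periplocin, while SERPINI1 went from 1.37% to 65.8%. The makeup of this sum thus differed between DMSO and periplocin in THP-1, and in K562 the sum differed while SERPINI1 held most of it in both libraries. The 3 genes were chosen with these values known, so the sum and its makeup are a description only. They also differ in target, SERPINI1 inhibiting mainly tissue plasminogen activator, so the sum is not a single pool of inhibitor. These shares are of mRNA and say nothing of protein or of secreted inhibitor.

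**Figure D3:**
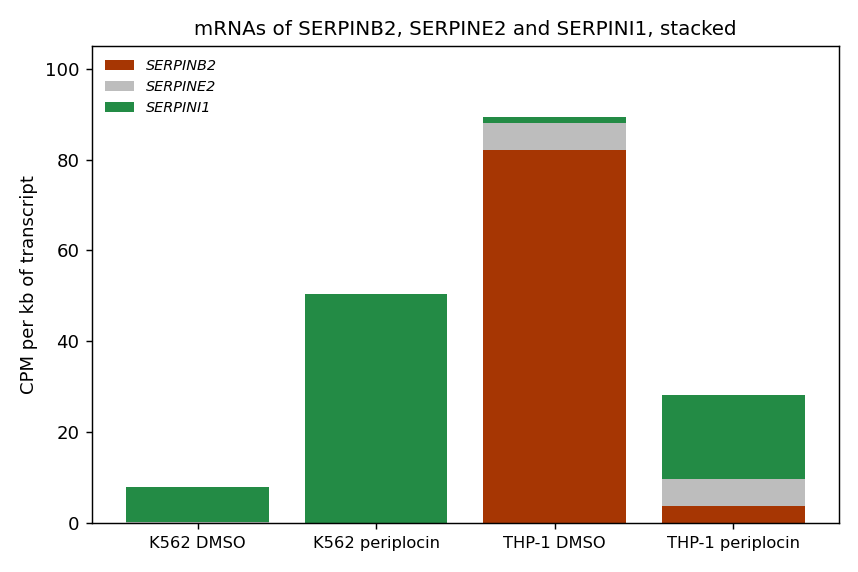
Stacked levels, in CPM per kb of the longest coding transcript, of SERPINB2, SERPINE2 and SERPINI1 mRNA in each library. The THP-1 DMSO bar is mostly SERPINB2 (82.2 of 89.4), whereas both periplocin bars are mostly SERPINI1 (50.2 of 50.3 in K562 and 18.5 of 28.1 in THP-1).

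The remaining clade B genes differed from one another. SERPINB1 inhibits the neutrophil granule proteases elastase, proteinase 3 and cathepsin G. Its counts were 2285 with DMSO and 1691 with periplocin in K562, against 1186 and 732 in THP-1, 1.38-fold lower with periplocin in each line (intervals 1.29 to 1.47 and 1.26 to 1.52). SERPINB6, a broadly expressed intracellular inhibitor of cathepsin G and other trypsin-like proteases, was 1.12-fold lower in K562, from 4436 to 4026 counts (interval 1.08 to 1.17). THP-1 had 571 and 451 counts, a 1.08-fold lower value whose interval (0.952 to 1.22) included no difference. All of these values were below 2-fold.

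SERPINB8, an inhibitor of furin and other proteases, had 3 counts in each K562 library and was among the most abundant members in THP-1. There SERPINB8 fell 2.35-fold (interval 2.21 to 2.50), from 3665 to 1330 counts or 178 to 75.1 CPM. SERPINB8 overlaps AC009802.1, an antisense gene that is not in the count table, and reads are not told apart by strand there. SERPINB9, which inhibits granzyme B and protects cytotoxic cells from their own granules, was a K562 gene, with 1209 counts in DMSO and 1178 in periplocin. Its ratio of periplocin over DMSO was 0.957, with an interval from 0.882 to 1.04. With 5 and 4 counts in THP-1, a difference in SERPINB9 was not detectable there at this depth.

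The clade B members lie in 2 clusters of the genome. On chromosome 18, from SERPINB5 to SERPINB8 (63476761 to 64019779), the table listed 10 serpin genes. Of these, SERPINB2, SERPINB10 and SERPINB8 passed the filter in THP-1 and all 3 were at least 2-fold lower with periplocin, beside 11.2% of 12989 genes, while none of the 10 passed in K562. SERPINB2 and SERPINB8 were chosen with these values known, so nothing is read from this count. SERPINB10, known from bone marrow cells, went from 1472 to 263 counts in THP-1, 4.77-fold lower (interval 4.18 to 5.46). HMSD, which lies between SERPINB10 and SERPINB8 and overlaps the latter on the same strand, went from 34 to 5 counts. The other 7 serpins of this cluster had at most 6 counts in any library.

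Genes within 500 kb of the chromosome 18 cluster were looked at after the serpin values were seen. BCL2, the apoptosis inhibitor, had 659 and 128 counts in K562, against 7520 and 1756 in THP-1, below the DMSO value by more than 2-fold each time. KDSR, VPS4B and PHLPP1 were within 2-fold in both lines, with log2 ratios between -0.38 and 0.34. On chromosome 6, from SERPINB1 to SERPINB6 (2832332 to 2972165), SERPINB1, SERPINB9 and SERPINB6 passed the filter in K562 and SERPINB1 and SERPINB6 in THP-1, and none of these was 2-fold apart. Of 9 further genes within 500 kb of this cluster, 9 passed the filter in K562 and 7 in THP-1. In K562, 1 was at least 2-fold higher, beside 9.69% of all genes tested. In THP-1, 1 was at least 2-fold lower, beside 11.2%. The gene lower in THP-1 had 21 and 8 counts, and its interval included no difference.

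**Figure D4:**
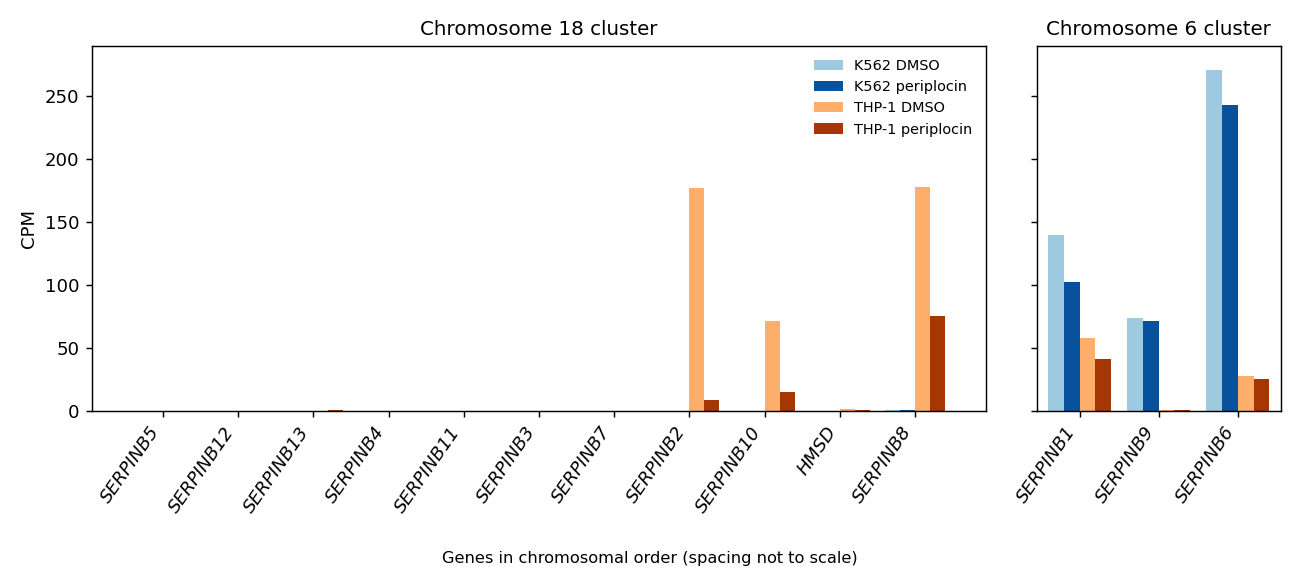
CPM in the 4 libraries of the genes inside the chromosome 18 and chromosome 6 clusters of clade B serpins, in chromosomal order and on a linear axis from 0. On chromosome 18 only SERPINB2, SERPINB10 and SERPINB8 rise visibly above the axis, in THP-1, and each is lower with periplocin. On chromosome 6 the K562 bars are the taller ones and for SERPINB1, SERPINB6 and, in K562, SERPINB9 the DMSO and periplocin bars lie within 2-fold of each other.

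Of the remaining plasminogen system, a list of 38 genes was counted. It was written from general knowledge with earlier results of these data known, so its counts and medians are a description only. In K562, 20 passed the filter, 4 were at least 2-fold higher and 2 at least 2-fold lower, beside 9.69% and 12.1% of all genes tested, with a median log2 ratio of 0.11 beside -0.01 over all genes tested. In THP-1, 23 passed, 6 were higher and 4 lower, beside 8.88% and 11.2% of all genes, with a median of 0.55 beside -0.03. ITGAM, 1 of the higher genes in both lines, also stands in the list of myeloid markers.

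Plasminogen itself, PLG, had at most 4 counts in any library, and tissue plasminogen activator, PLAT, at most 7.

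Several genes of the list differed by at least 2-fold in 1 of the lines, and some had too few counts in the other to compare. S100A10, which with annexin A2 forms a plasminogen-binding complex, rose 13.2-fold in THP-1 (interval 11.5 to 15.2), from 226 to 2550 counts, and had 28 and 16 counts in K562. ANXA2 rose 2.49-fold in THP-1 (interval 2.33 to 2.66), from 1276 to 2705 counts, and in K562 had 2223 and 2399 counts. PLGRKT, a plasminogen receptor, fell 2.44-fold in K562 (interval 1.58 to 3.88), from 72 to 30 counts, and in THP-1 had 119 and 102 counts. LRP1, the endocytic receptor that clears complexes of urokinase and inhibitor, rose 3.83-fold in K562 (interval 3.13 to 4.72), from 121 to 472 counts, and had 299 and 300 counts in THP-1. TFPI, an inhibitor of the tissue factor pathway, rose 2.73-fold in K562 (interval 2.48 to 3.01), from 563 to 1567 counts. It had only 12 counts in each THP-1 library. In THP-1, MMP2, a gelatinase, rose from 221 to 1138 counts. MMP2 had 1 and 0 counts in K562, where a difference could not be judged. MMP14, a membrane-bound matrix protease, rose 2.09-fold in THP-1, from 3620 to 6441, just past the 2-fold limit, and had 66 and 68 counts in K562. In THP-1 F13A1, the fibrin-crosslinking factor, fell from 1018 to 228. MRC2, an endocytic collagen receptor associated with the urokinase receptor, fell from 6687 to 2170 in THP-1 and had 1372 and 1011 counts in K562.

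**Figure D5:**
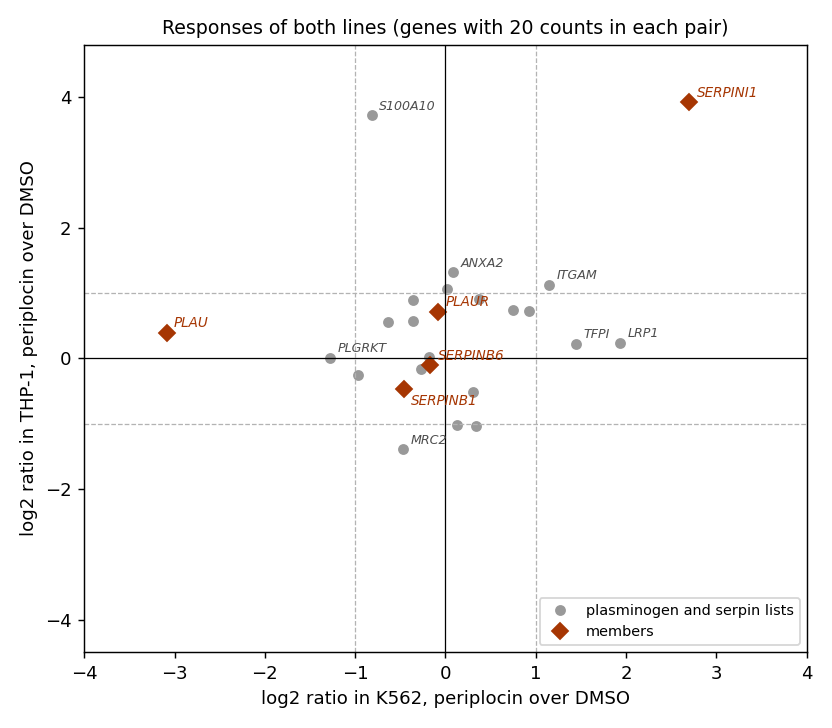
Log2 ratio of periplocin over DMSO in K562 (horizontal) and THP-1 (vertical) for 5 members and 20 genes of the plasminogen and serpin lists that had at least 20 counts in each pair, with dashed lines at 2-fold. SERPINI1 lies at the upper right, PLAU at the far left near the horizontal axis, and S100A10 at the top left of the origin. ITGAM lies in the corner past 2-fold in both lines, at 1.15 and 1.12.

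Among 24 further serpin genes, 4 passed the filter in K562, where 1 was at least 2-fold lower and none higher, and 6 in THP-1, where 1 was higher and 1 lower. Of all genes, 9.69% were higher and 12.1% lower in K562, and 8.88% and 11.2% in THP-1. SERPINI2, a serpin named for the pancreas, rose from 103 to 199 counts in THP-1 and had 0 counts in K562. SERPINH1, the collagen chaperone of the endoplasmic reticulum, had 4980 counts with DMSO and 2588 with periplocin in K562, a log2 ratio of -0.97 just short of 2-fold, and 1051 and 749 in THP-1. SERPING1, the inhibitor of complement C1, had between 8 and 36 counts per library.

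Proteases that the members are known to bind, together with the inactive homolog AZU1, were counted in a list of 13 genes. In K562, 6 passed the filter, 1 was at least 2-fold higher and 3 lower, beside 9.69% and 12.1% of all genes. In THP-1, 8 passed, 1 was higher and 2 were lower, beside 8.88% and 11.2%. Granule protease genes were expressed in THP-1, where ELANE, PRTN3, CTSG and the inactive homolog AZU1 summed to 2222 CPM with DMSO and 1503 CPM with periplocin, against 5.56 and 3.86 CPM in K562. CTSG, a target of SERPINB1 and SERPINB6, fell 3.64-fold in THP-1 (interval 3.44 to 3.86), from 6226 to 1458 counts. PRTN3 fell there from 8669 to 3037 counts. The inflammatory caspase gene CASP4 fell from 283 to 104 counts in K562, and CASP8 rose from 1074 to 2192 in THP-1. Granzyme B, the target of SERPINB9, had 0 counts in all 4 libraries, where 3 counts correspond to between 0.145 and 0.183 CPM.

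The genes with the most similar pattern were looked up by the Euclidean distance of log2(CPM + 1), centred over the 4 libraries, among the 11023 genes averaging 5 CPM or more over the libraries. For PLAU they were KCNMB3 (distance 0.11), TNFRSF1A (0.24) and IL4R (0.29). For PLAUR they were ZCCHC24, IFI35 and TNPO1, all within 0.07. For SERPINB2 the nearest were PPP1R27 at 1.22, CD38 at 1.31 and LAMP5 at 1.43. Despite that distance, PPP1R27 had a log2 ratio of -4.36 in THP-1, beside -4.42 for SERPINB2. The nearest to SERPINI1 were METTL7A (0.81), H2AC18 (1.13) and IFI30 (1.20). A pattern over 4 libraries rests on 4 values and describes likeness of levels only.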

How the data were processed

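RNA of 4 libraries, 1 per condition, was analysed. The authors deposited 1 table of expected counts per gene and library, which are estimated counts that need not be whole (87.4% to 88.3% were whole), without normalization. The submitters' processing notes name HISAT2, StringTie 1.3.1 and hg38 without roles. The counting program and annotation are not given in the sources used here. The library kit, as described, does not mark strand, so reads of a gene and its antisense partner cannot be told apart. The table held 0 unused columns.

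The expected counts were rounded, and CPM were computed on library totals. Of 20348 genes, 20310 were named by identifier, and 20118 were found in GENCODE release 29 (GRCh38) for positions and transcript lengths. The longest coding transcript may overstate the length that was expressed. Upstream sequences came from RefSeq (GRCh38.p14), and a motif could overlap another. Log2 ratios used TMM factors from edgeR 4.0.16 over each pair of libraries (between 0.996 and 1.004 within the lines, 0.959 and 1.04 between DMSO libraries) and 0.5 count added per library, scaled to library size. Folds without an added count are given with 95% Clopper-Pearson intervals of the split of counts. A difference of at least 2-fold was counted among genes with at least 20 counts in the pair, and 3 counts were the floor. No p-value was computed, because there was 1 library per group and the genes were chosen on these values. The calculation was tested on simulated data. R 4.3.3, DESeq2 1.42.0 (size factors), Python 3.11.15, numpy 2.4.6, scipy 1.17.1, pandas 2.3.3 and matplotlib 3.10.9 were used.

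The members and lists were chosen with earlier results of these data known. Named list genes were PLAT, PLG, SERPING1, SERPINH1, LRP1, PLGRKT, ANXA2, S100A10 and PDCD10, and up to 5 rises and 5 falls per list and line past 2-fold with a mean of at least 5 CPM. BCL2, KDSR, VPS4B, PHLPP1, HMSD, ELANE, AZU1 and GZMB, given as granzyme B, were named after their values were seen. Some genes of the lists are not reported here and were left out of every list count and sum. Alternatives were DESeq2's size factors, total counts, other filters on low counts, unrounded counts and 2 added counts, and, added later, totals without mitochondrial genes.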

Additional observations from a re-analysis of the deposited data

Results flagged for a closer look

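Among the members and the named list genes, PLAU, CASP4 and PRTN3 had counts that moved in opposite directions in K562 and THP-1, each beyond counting error. Other list genes that moved this way lie outside the naming rule and are not described. For PLAU the log2 ratio of periplocin over DMSO was -3.09 in K562 and 0.39 in THP-1, a difference (THP-1 minus K562) of 3.48. CASP4 had -1.47 and 0.39, a difference of 1.85. PRTN3 had 1.63, from 6 to 20 counts, in K562 and -1.28 in THP-1, a difference of -2.91. Each line has 1 library per condition, so these differences between lines were not tested.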

How the results depend on the processing

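Each of the 23 member ratios with at least 20 counts in its pair kept its sign and its side of 2-fold under 5 alternatives (DESeq2's size factors, total counts, unrounded counts, 2 counts added and totals without mitochondrial genes). Of the 115 values, 113 lay within the counting interval of the main value. The other 2 were SERPINB1 between the DMSO libraries, at -1.28 with total counts, with or without mitochondrial genes, instead of -1.16. Total counts moved the median of all genes between the DMSO libraries by -0.12 on the log2 scale and by less than 0.1 within the lines. With 2 counts added the SERPINB2 ratio between the DMSO libraries, where K562 had 0 counts, fell by 2 on the log2 scale. With 1 count in the pair in place of 20, more genes were tested and the counts past 2-fold were larger: 4 members in place of 2, 5135 genes in place of 2702 and 18 list genes (plasminogen system and other serpins) in place of 7 in K562, and 4667 genes in place of 2605 and 25 list genes in place of 12 in THP-1. The 2 members gained in K562 were SERPINB2, at 0 and 1 counts, and SERPINE2, at 10 and 2. No paired analysis was possible because each group had 1 library and the labels carry no replicate numbers. Leaving out a library was not possible either, since no comparison would be left. Depth limits SERPINB2, SERPINB8 and SERPINE2 in K562 and SERPINB9 in THP-1.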
